A study of Mus musculus with 26 samples.

Results

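The genes of polyamine metabolism were 10 of the 50686 genes in the count table: Odc1, Amd1, Srm, Sms, Sat1, Smox, Paox, Oaz1, Oaz2 and Azin1. They were chosen by name from the pathway, with Ensembl identifiers matched to mouse symbols, and all 10 passed the filter on low counts that left 17286 genes for testing. RNA-sequencing was carried out on brown adipose tissue (BAT) of 26 male mice in 4 groups, and the comparisons ask how BAT transcripts respond to cold and whether loss of Afadin alters this. The controls at thermoneutrality (7 mice) and the mice labelled FAKO at thermoneutrality (7 mice) had spent about 2 weeks there. The cold-exposed controls (5 mice) and cold-exposed mice labelled FAKO (7 mice) then spent 6 h at 5 °C.

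All mice were C57BL/6J, aged 12 to 16 weeks. Thermoneutrality was 29 °C in the study's methods and 30 °C in the sample labels. FAKO stands for fat-specific Afadin knockout, obtained by crossing Adiponectin-Cre mice with Mllt4 flox/flox mice (Mllt4 is the older symbol of Afdn, the Afadin gene), and the controls were littermates. Adiponectin-Cre acts in adipocytes, so that other cells of the tissue keep the gene. The labels give the depot as supraclavicular. In bulk tissue, fewer cells of a type and less RNA per cell cannot be told apart.

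Polyamines (putrescine, spermidine and spermine) are small, positively charged molecules that bind nucleic acids and are needed for growth and translation. Ornithine decarboxylase makes putrescine from ornithine, and the synthases extend it to spermidine and spermine with aminopropyl groups from decarboxylated S-adenosylmethionine. Acetylation and oxidation run the chain back, antizymes send ornithine decarboxylase to the proteasome, and antizyme inhibitors bind the antizymes. In adipose tissue, the acetyltransferase and the flux through this cycle have been linked to energy expenditure.

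Afdn was examined first. In CPM, read counts scaled to library size with TMM factors, it ran at thermoneutrality from 151 to 214 in controls and from 153 to 230.5 in mice labelled FAKO. The log2 fold change between them was -0.01 (SE 0.08, edgeR adjusted p = 0.993). After cold it was -0.33 (SE 0.09, edgeR adjusted p = 0.116, and -0.32 with an adjusted p of 0.0478 in DESeq2), with 53.3 to 65.3 CPM in mice labelled FAKO, below the 67.9 to 79.2 CPM of controls in every mouse. The counts cover the whole gene, and the floxed exons are not given in the sources used here. Afdn RNA at thermoneutrality thus did not set the libraries labelled FAKO apart, and genotypes are given as labelled. The paper also compared Afadin protein in BAT between the genotypes, at thermoneutrality and after cold. It reports a smaller rise of the protein with cold in FAKO mice. Protein is not part of the data used here.

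Total counts ran from 12705969 to 25732258 per mouse, and no pair of mice in a group agreed within sampling noise. Control replicate 7 at thermoneutrality and labelled-FAKO replicate 27 after cold lay farthest from their group means. The first had 14.3% mitochondrial counts and 5137 CPM in 6 summed skeletal muscle markers. The second had 55.2 CPM in 4 summed neutrophil markers, against 4.54 to 20.7 CPM in the others of its group. Summed skeletal muscle markers ran from 0.815 to 7039 CPM over all mice, none of the 6 was past the threshold in any comparison, and no marker was at 0 throughout a group. The 9 summed brown adipocyte markers ran from 6745 to 8530 CPM at thermoneutrality and from 27980 to 35630 CPM after cold. Taken singly, 5 of the 9 rose and 2 fell past the threshold in controls, and 5 rose and 3 fell in mice labelled FAKO. Of 4 neutrophil markers, 3 rose with cold in controls and 4 in mice labelled FAKO. Of 4 endothelial markers, 3 rose and 1 fell in both. Of 4 erythroid markers, 0 passed the threshold in controls and 4 rose in mice labelled FAKO. Of 4 macrophage markers, 1 rose and 2 fell in controls, and 2 rose and 2 fell in mice labelled FAKO. Of 4 lymphocyte markers, 2 fell in controls and 1 fell in mice labelled FAKO, and the others did not pass. Of 4 markers of dividing cells, 0 passed in controls and 2 fell in mice labelled FAKO. Of 5 nuclear-retained RNAs, 3 rose and 1 fell in controls, 2 rose and 2 fell in mice labelled FAKO, and 3 had a lower cold response in mice labelled FAKO past the threshold. Their summed level after cold was 14840 to 16280 CPM in controls and 10340 to 13580 CPM in mice labelled FAKO, without overlap. Apart from a fit with the summed skeletal muscle markers as a covariate, the part of these lists in the values below was not tested.

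Stretches just upstream of the first annotated exon are shown for Odc1 and Sat1, whose cold changes were the largest among the 10 genes, for Amd1, which also rose, and for Oaz1, whose level after cold in controls was close to that at thermoneutrality. They are from RefSeq promoter windows on GRCm38.p6 (mm10) and run 5′ to 3′ on the strand of the gene. Capitals mark the short core of the cAMP response element (TGACG, or CGTCA on the other strand).
Odc1 (chr12:17544644-17544793, plus strand): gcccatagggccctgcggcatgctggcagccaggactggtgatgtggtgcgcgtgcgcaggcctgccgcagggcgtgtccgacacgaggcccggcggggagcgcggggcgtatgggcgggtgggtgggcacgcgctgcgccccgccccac
Sat1 (chrX:155216450-155216599, minus strand): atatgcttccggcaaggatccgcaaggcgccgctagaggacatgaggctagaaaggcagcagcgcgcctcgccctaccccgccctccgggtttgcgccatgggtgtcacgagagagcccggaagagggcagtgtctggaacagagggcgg
Amd1 (chr10:40302189-40302338, minus strand): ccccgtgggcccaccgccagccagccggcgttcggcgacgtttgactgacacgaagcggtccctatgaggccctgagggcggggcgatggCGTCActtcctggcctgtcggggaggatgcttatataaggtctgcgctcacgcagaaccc
Oaz1 (chr10:80826506-80826655, plus strand): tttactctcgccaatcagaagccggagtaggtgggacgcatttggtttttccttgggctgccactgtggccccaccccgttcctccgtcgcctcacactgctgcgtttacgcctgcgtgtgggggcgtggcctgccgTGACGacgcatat
Of the 8 genes with a window, 3 held TGACG on either strand within 300 bases (Odc1, Amd1 and Oaz1), against 20.8% of 32851 mouse windows. The 8 genes had 10 windows, and the percentages are shares of windows, not of genes. The Odc1 match lies downstream of the stretch shown. None held the full element TGACGTCA (1.79% of windows), which contains that core, and 1 (Sms) held the E-box CACGTG (7.15% of windows). These matches describe letters only.

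After 6 h at 5 °C in control mice, 5 of the 10 genes rose (Odc1, Sat1, Srm, Amd1 and Oaz2), 2 fell (Paox and Sms) and 3 did not pass the test (Smox, Oaz1 and Azin1). Of all genes tested, 31.6% rose and 33.4% fell. In mice labelled FAKO, 7 rose (the same 5 with Smox and Oaz1), 1 fell (Paox) and 2 did not pass (Sms and Azin1), against 33.7% of all genes rising and 34.9% falling. The median log2 fold change of the 10 was 0.30 in controls and 0.39 in mice labelled FAKO, beside -0.01 and -0.03 over all genes. When counts were scaled by library size only, 3 rose and 2 fell in controls and 2 rose and 2 fell in mice labelled FAKO, while the median of all genes moved to -0.14 and -0.34. Odc1, Sat1 and Paox were past the threshold in the same direction under every scaling and without any single mouse.

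**Figure D1:**
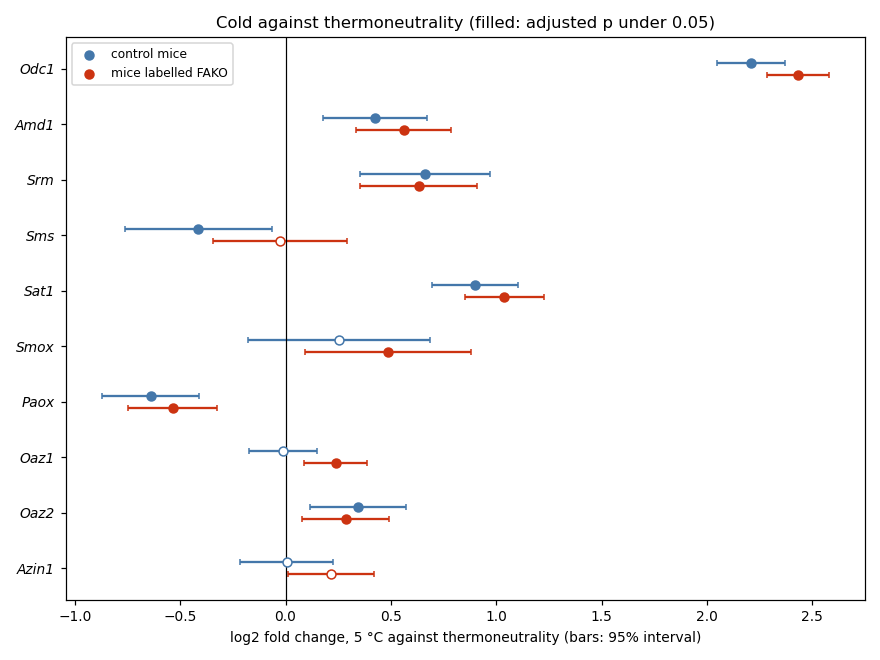
Log2 fold change of each gene at 5 °C against thermoneutrality (x axis) in control mice (blue) and mice labelled FAKO (red), with bars for the 95% interval and filled points for an adjusted p under 0.05. Odc1 lies at 2.21 and 2.43, apart from the other 9 genes, and Paox lies below 0 in both.

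Biosynthesis begins with Odc1, ornithine decarboxylase, the rate-limiting step (chromosome 12, 17544794 to 17551505, plus strand, mm10). The 5 cold-exposed controls had 142, 133, 125, 109 and 128 CPM. The lowest, median and highest values were 25.1, 28.1 and 29.7 CPM in controls at thermoneutrality, 22.5, 25.7 and 27.7 CPM in mice labelled FAKO at thermoneutrality and 114, 138 and 157 CPM in mice labelled FAKO after cold. Every cold-exposed mouse lay above every mouse at thermoneutrality, in both genotypes. Odc1 rose 4.62-fold in controls (log2 fold change 2.21, SE 0.08, edgeR adjusted p = 5.23e-18) and 5.39-fold in mice labelled FAKO (2.43, SE 0.07, edgeR adjusted p = 2.38e-19). In the respective comparisons, 2.05% and 1.87% of all genes tested had a more positive log2 fold change. Of its 100-base windows, 10.1% also occur in other genes, and the pseudogene Gm17709 had at most 49 counts in any mouse.

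Amd1, S-adenosylmethionine decarboxylase, supplies the aminopropyl donor (chromosome 10, 40287458 to 40302186, minus strand). The 5 cold-exposed controls had 16.0, 15.4, 11.2, 13.9 and 16.9 CPM, and controls at thermoneutrality 9.49 to 13.5 CPM with a median of 10.7. Of these, 1 cold-exposed control lay inside the range at thermoneutrality, whereas all 7 cold-exposed mice labelled FAKO (11.1 to 17.1 CPM) were above all 7 at thermoneutrality (8.41 to 10.7 CPM). The log2 fold change was 0.43 (SE 0.12, edgeR adjusted p = 0.00273) in controls and 0.56 (SE 0.11, edgeR adjusted p = 6.22e-05) in mice labelled FAKO. Both calls were lost when counts were scaled by library size only (0.31, edgeR adjusted p = 0.0581, and 0.24, edgeR adjusted p = 0.0949). Amd1 shares 67.1% of its 100-base windows with Amd2 and pseudogenes, so its level is uncertain. Amd2 itself had at most 5 counts in any mouse. A read from a shared window fits either gene, so low counts of copies, here and for the other genes, do not measure their share.

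Srm, spermidine synthase (chromosome 4, 148591503 to 148594993, plus strand), shared no window with another gene. The 5 cold-exposed controls had 24.7, 24.5, 20.6, 21.7 and 29.1 CPM, all above the 12.3 to 19.5 CPM (median 15.1) of controls at thermoneutrality. With the FAKO label, Srm ran from 12.6 to 19.8 CPM (median 17.4) at thermoneutrality and from 21.2 to 42.4 CPM (median 24.0) after cold, again without overlap. The highest value belonged to replicate 27, and the next was far below it. Srm rose by a log2 fold change of 0.66 (SE 0.15, edgeR adjusted p = 0.000332) in controls and 0.63 (SE 0.14, edgeR adjusted p = 0.000206) in mice labelled FAKO. Without replicate 27 the latter was 0.47 (edgeR adjusted p = 0.000387). Scaled by library size only, it was 0.33 (edgeR adjusted p = 0.0779).

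Sms, spermine synthase (chromosome X, 157443855 to 157492287, minus strand), had the lowest level per kilobase of the 10 genes in every group. The 5 cold-exposed controls had 6.29, 5.57, 3.35, 3.85 and 3.86 CPM, beside 5.67 to 6.70 CPM at thermoneutrality. Of the 5, 1 lay inside the thermoneutral range and 4 below it. Sms fell in controls (log2 fold change -0.41, SE 0.17, edgeR adjusted p = 0.0361). The call was lost without control replicate 1 (-0.39) or 5 (-0.41) at thermoneutrality and without control replicate 18 (-0.32), 19 (-0.36) or 21 (-0.36) after cold. For mice labelled FAKO the log2 fold change was -0.03 (95% interval -0.35 to 0.29, edgeR adjusted p = 0.880), and the difference between the genotypes was 0.38 (SE 0.23, edgeR adjusted p = 0.421). Scaled by library size only, the Sms value in mice labelled FAKO passed the threshold (-0.38, edgeR adjusted p = 0.0307). The median of all genes was -0.34 in that setting, and Sms minus that median was -0.035. The slope of Sms on the summed muscle markers was 0.05 log2 units per log2 unit and did not pass the threshold (edgeR adjusted p = 0.0506), nor did that of Azin1, at -0.03 (edgeR adjusted p = 0.0626). With that score as a covariate, chosen after seeing the data, the change of Sms in controls was -0.48 (edgeR adjusted p = 0.0042).

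**Figure D2:**
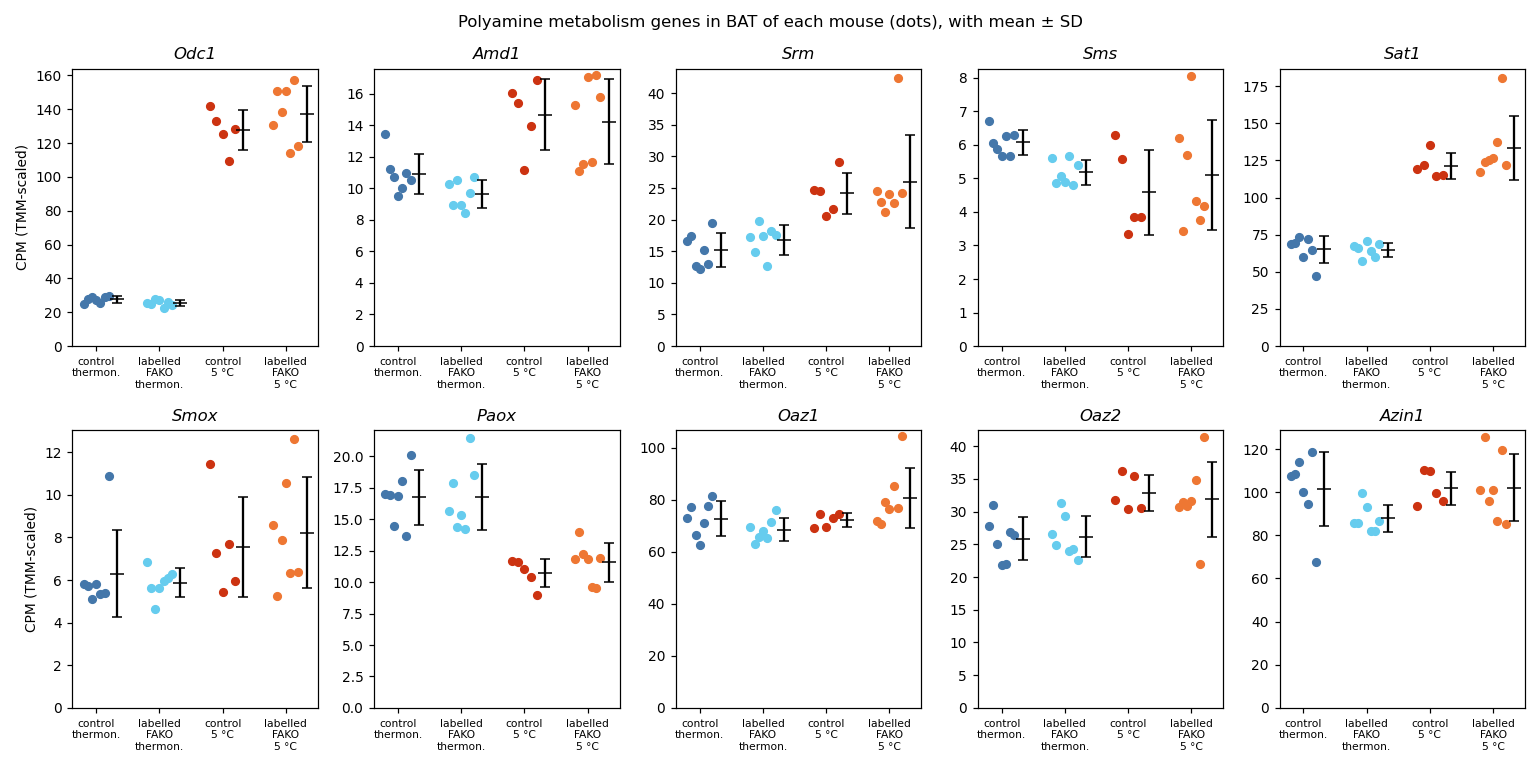
CPM (TMM-scaled, y axis from 0) of each gene in every mouse (dots) in the 4 groups, with the mean ± SD beside them. Odc1 runs from 22.5 to 29.7 CPM at thermoneutrality and from 109 to 157 CPM after cold, while Oaz1 and Azin1 overlap across all groups.

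Catabolism begins with Sat1, the spermidine/spermine acetyltransferase (chromosome X, 155213132 to 155216449, minus strand). The 5 cold-exposed controls had 119, 122, 135, 114 and 115 CPM. The lowest, median and highest values were 46.8, 68.4 and 73.6 CPM in controls at thermoneutrality, 57.1, 65.8 and 70.4 CPM in mice labelled FAKO at thermoneutrality and 117.5, 125.5 and 180.2 CPM in mice labelled FAKO after cold. Every cold-exposed mouse lay above every mouse at thermoneutrality in both genotypes. Sat1 rose 1.86-fold in controls (log2 fold change 0.90, SE 0.10, edgeR adjusted p = 9.45e-09) and 2.05-fold in mice labelled FAKO (1.04, SE 0.09, edgeR adjusted p = 1.41e-10). Without replicate 27, which had the highest value, the latter was 0.95 (edgeR adjusted p = 5.06e-11).

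Of the oxidases, Paox, the peroxisomal oxidase of acetylated polyamines (chromosome 7, 140115799 to 140137224, plus strand), had 11.7, 11.6, 11.0, 10.4 and 8.99 CPM in the 5 cold-exposed controls and 13.7 to 20.1 CPM (median 16.9) at thermoneutrality. Paox in mice labelled FAKO ran from 14.2 to 21.4 CPM at thermoneutrality and from 9.50 to 14.0 CPM after cold. Cold-exposed mice lay below those at thermoneutrality in both genotypes without overlap. The log2 fold change was -0.64 (SE 0.11, edgeR adjusted p = 1.99e-05) in controls and -0.53 (SE 0.10, edgeR adjusted p = 4.8e-05) in mice labelled FAKO. Exons of Paox overlap Echs1 on the opposite strand, and 23.6% of its windows occur elsewhere, mostly in Gm19680, which had at most 6 counts. The library kit keeps the strand, but the strand setting of the counting is not given in the sources used here, and Echs1 fell in controls (log2 fold change -0.32, edgeR adjusted p = 0.000387). For mice labelled FAKO the log2 fold change of Echs1 was -0.11 (edgeR adjusted p = 0.134).

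Smox, spermine oxidase (chromosome 2, 131491496 to 131525922, plus strand), had 11.4, 7.25, 5.45, 7.69 and 5.93 CPM in the 5 cold-exposed controls and 5.10 to 10.9 CPM (median 5.74) at thermoneutrality. The groups overlapped, and the highest thermoneutral value belonged to control replicate 7. The log2 fold change in controls was 0.25 (95% interval -0.18 to 0.69, edgeR adjusted p = 0.293), and 0.43 (edgeR adjusted p = 0.0475) without that mouse. In mice labelled FAKO it was 0.49 (SE 0.19, edgeR adjusted p = 0.0266). This call was lost without replicate 9 (0.45) or 10 (0.44) at thermoneutrality and without replicate 25 (0.41) or 27 (0.35) after cold. With library size alone it was 0.15 (edgeR adjusted p = 0.568), and with upper-quartile factors 0.32 (edgeR adjusted p = 0.129). The call was also lost with at least 10 counts in every mouse (0.42, edgeR adjusted p = 0.0529). Without both libraries farthest from their group means the value was 0.32 (edgeR adjusted p = 0.062).

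Among the regulators, Oaz1 and Oaz2 encode antizymes, whose full-length translation needs a polyamine-stimulated ribosomal frameshift. Oaz1 (chromosome 10, 80826656 to 80829290, plus strand) had 69.0, 74.5, 69.3, 73.0 and 74.4 CPM in the 5 cold-exposed controls, inside the 62.4 to 81.3 CPM of controls at thermoneutrality. Its log2 fold change in controls was -0.01 (95% interval -0.17 to 0.15, edgeR adjusted p = 0.899). Oaz1 in mice labelled FAKO ran from 62.9 to 76.2 CPM at thermoneutrality and from 70.7 to 104 CPM after cold, with overlap (log2 fold change 0.24, SE 0.07, edgeR adjusted p = 0.00507). With library size alone the latter turned to -0.08, and with upper-quartile factors it was 0.08 (edgeR adjusted p = 0.303). The processed copy Oaz1-ps, with which it shares 14.5% of its windows, had at most 43 counts.

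Oaz2 (chromosome 9, 65668001 to 65690300, plus strand) ran from 21.9 to 31.0 CPM in controls at thermoneutrality and from 30.4 to 36.2 CPM after cold. Its log2 fold change was 0.34 (SE 0.11, edgeR adjusted p = 0.00794) in controls and 0.28 (SE 0.10, edgeR adjusted p = 0.015) in mice labelled FAKO, where the groups overlapped. This last call was lost without replicate 12 (0.24), 13 (0.23) or 14 (0.22) at thermoneutrality or replicate 28 (0.21) after cold, and with library size alone the value was -0.02. In controls it was 0.22 (edgeR adjusted p = 0.161) with library size alone. Upper-quartile factors also ended both calls (0.24, edgeR adjusted p = 0.0614, in controls and 0.13, edgeR adjusted p = 0.257, in mice labelled FAKO), and so did a fit to only the groups compared for mice labelled FAKO (0.24, edgeR adjusted p = 0.0628).

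Azin1, the antizyme inhibitor (chromosome 15, 38487427 to 38519266, minus strand), ran from 67.4 to 119 CPM in controls at thermoneutrality and from 93.6 to 110.2 CPM after cold. Its log2 fold change in controls was 0.005 (95% interval -0.22 to 0.23, edgeR adjusted p = 0.970). In mice labelled FAKO it was 0.22 (95% interval 0.01 to 0.42, edgeR adjusted p = 0.0536). It passed the threshold without labelled-FAKO replicate 10 at thermoneutrality (0.25) or replicate 26 (0.25) or 28 (0.26) after cold, and in DESeq2 (0.23, adjusted p = 0.0339). Robust empirical Bayes (0.22, edgeR adjusted p = 0.0491) and the skeletal muscle score as a covariate (0.21, edgeR adjusted p = 0.0227) also brought it past the threshold.

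The levels per kilobase (RPKM) changed order with cold. In controls at thermoneutrality, Oaz1 had the highest mean RPKM (28.4 ± 2.59, SD, n = 7), followed by Sat1 (23.4 ± 3.34) and Azin1 (16.2 ± 2.73), and each overlapped its neighbour. Srm (9.52), Oaz2 (8.65) and Odc1 (8.09) followed, also overlapping, then Paox (3.41), Amd1 (3.08), Smox (1.61) and Sms (1.01). After cold, Sat1 (43.7 ± 3.07, n = 5) and Odc1 (37.4 ± 3.49) overlapped each other and lay above Oaz1 (28.2 ± 1.05) in every control. In mice labelled FAKO after cold the order was the same, with Odc1 (40.3 ± 4.93, n = 7) overlapping Oaz1 (31.5 ± 4.51).

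Ratios of RPKM within each mouse put the same data side by side for an enzyme and its regulator (Odc1 and Oaz1) and for successive catabolic steps (Sat1 and Paox). The ratio of Odc1 to Oaz1 ran from 0.258 to 0.327 in controls at thermoneutrality and from 1.12 to 1.54 after cold, and in mice labelled FAKO from 0.239 to 0.317 and from 0.852 to 1.60. The ratio of Sat1 to Paox ran from 4.11 to 9.01 in controls at thermoneutrality and from 18.1 to 22.7 after cold. For both ratios, the cold-exposed mice lay above those at thermoneutrality without overlap. The ratios are descriptions of RNA and were not tested.

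Mice labelled FAKO were then compared with controls at each temperature. None of the 10 genes passed the threshold in edgeR or DESeq2 at thermoneutrality or after cold, beside 0.081% and 0.139% of all genes in edgeR. At an unadjusted p under 0.05 there was 1 of the 10 at thermoneutrality (Azin1, log2 fold change -0.21, edgeR adjusted p = 0.634) and 1 after cold (Oaz1, 0.16, edgeR adjusted p = 0.371), beside 7.65% and 13.4% of all genes. The median log2 fold change was -0.10 at thermoneutrality and 0.11 after cold, beside -0.02 and 0.02 over all genes.

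For Odc1 the difference was -0.12 at thermoneutrality (95% interval -0.27 to 0.03) and 0.11 after cold (95% interval -0.05 to 0.26). For Sat1 it was -0.003 (95% interval -0.19 to 0.19) and 0.14 (95% interval -0.07 to 0.34). The widest intervals were those of Smox, from -0.50 to 0.29 at thermoneutrality and from -0.30 to 0.56 after cold. Values within these intervals were not distinguishable with the mice available.

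The difference between the cold responses passed the threshold for 0 of the 10 genes in edgeR and in DESeq2, beside 1.16% of all genes in edgeR. At an unadjusted p under 0.05 there were 2, Odc1 (0.22, 95% interval 0.004 to 0.44, edgeR adjusted p = 0.301) and Oaz1 (0.25, 95% interval 0.03 to 0.47, edgeR adjusted p = 0.243), beside 16.2% of all genes. The median over the 10 was 0.17, beside 0.04 over all genes. These 3 comparisons share mice, so that their values are not independent.

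**Figure D3:**
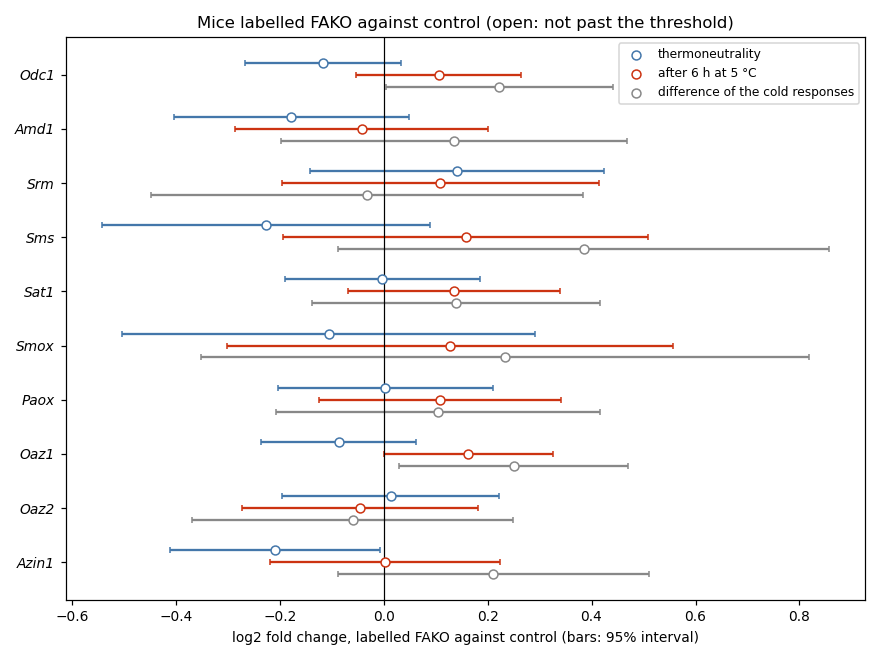
Log2 fold change of mice labelled FAKO against controls (x axis) for each gene at thermoneutrality (blue) and after 6 h at 5 °C (red), and the difference of the cold responses (grey), with bars for the 95% interval. All points are open because none passed the threshold, and Smox and Sms have the widest bars.

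The wider pathway was described with 5 lists. Of 7 tested genes of polyamine and arginine transport (10 listed), 3 rose and 4 fell in controls, and 3 rose and 3 fell in mice labelled FAKO. Slc3a2, the heavy chain of amino acid exchangers that has also been linked to polyamine export, had 22.4 to 29.04 CPM in controls at thermoneutrality and 274 to 306 CPM after cold, and rose (log2 fold change 3.48 in both genotypes, edgeR adjusted p = 2.81e-21 in controls). Slc7a1, a cationic amino acid transporter that takes up arginine and ornithine, rose by 3.23 (SE 0.22) in controls and 3.11 (SE 0.20) in mice labelled FAKO. Atp13a3, a P5B-type ATPase linked to polyamine uptake, rose by 1.49 (SE 0.09) and 1.32 (SE 0.08), and Slc22a3, an organic cation transporter, fell by 2.83 and 2.42 on the log2 scale. Other genes of the same families went the other way. Atp13a2 fell (log2 fold change -1.47 in controls and -1.36 in mice labelled FAKO), and so did Slc7a2 (-1.29 and -1.08).

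Of 6 tested genes of ornithine supply (8 listed), 1 rose and 2 fell in controls, and 3 rose and 3 fell in mice labelled FAKO. Aldh18a1, which makes the precursor of proline and ornithine from glutamate, rose by 1.69 (SE 0.21) in controls and 1.67 (SE 0.20) in mice labelled FAKO. Gatm, which uses arginine for creatine synthesis, fell by 1.13 and 0.70. Oat, with 74.1 to 88.8 CPM in controls at thermoneutrality, also fell (log2 fold change -0.58 in controls and -0.52 in mice labelled FAKO). Arg2, the mitochondrial arginase, had 0.79 in controls (edgeR adjusted p = 0.0929) and rose by 1.42 in mice labelled FAKO (edgeR adjusted p = 0.001). Pycr1, a proline synthesis enzyme, had -0.60 in controls, where it did not pass, and fell by 1.20 in mice labelled FAKO. In mice labelled FAKO, Arg2 had 3 to 9 counts at thermoneutrality and 5 to 40 after cold, and Pycr1 had 10 to 17 and 0 to 9. The values of Arg2 and Pycr1 thus rest on few reads.

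Of 7 tested genes of S-adenosylmethionine supply and methionine salvage (8 listed), 1 rose and 5 fell in controls, and 2 rose and 4 fell in mice labelled FAKO. Mat2a, which makes S-adenosylmethionine, rose by 0.78 (SE 0.15) and 0.89 (SE 0.14). Of the enzymes that recycle the methylthioadenosine left by the synthases, Mtap fell by 1.28 and 0.84, Mri1 by 0.93 and 0.85, and Adi1 by 1.85 and 1.36. Apip, of the same route, had 0.07 in controls (edgeR adjusted p = 0.502) and rose by 0.19 in mice labelled FAKO (edgeR adjusted p = 0.0293). Adi1 was the one gene of the wider lists whose cold responses differed between the genotypes past the threshold (0.49, SE 0.12, edgeR adjusted p = 0.0452), a call lost in 20 of 26 fits on all but 1 of the mice.

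The hypusine list holds the enzymes that build hypusine, a spermidine-derived residue, on translation factor eIF5A (Dhps and Dohh) and the genes of the factor itself (Eif5a and Eif5a2). Of these 4, 2 rose and 1 fell in controls and 3 rose and 1 fell in mice labelled FAKO. Dohh, the hydroxylase of the last step, rose by 0.93 and 0.95, and Eif5a rose by 0.42 and 0.69. Eif5a2, the second isoform, fell by 0.54 and 0.63. Dhps, the first enzyme, had -0.05 in controls and 0.19 in mice labelled FAKO (edgeR adjusted p = 0.0413), a call lost in 8 of 14 fits that each left out 1 mouse (replicates 8, 9, 11, 13 and 14 at thermoneutrality and 25, 27 and 28 after cold), where the value ran from 0.13 to 0.22 over all 14. Scaled by library size only, the Dhps value turned to -0.13.

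Among paralogs and other enzymes, 2 of 6 listed genes could be tested, and both fell while their counterparts among the 10 genes rose or did not pass. Azin2 fell by 2.43 (SE 0.26) in controls and 1.96 (SE 0.24) in mice labelled FAKO, and Sat2 by 1.83 (SE 0.15) and 1.68 (SE 0.13). The ratio of Sat1 to Sat2 in RPKM ran from 5.96 to 9.23 in controls at thermoneutrality and from 41.4 to 64.3 after cold. Azin2 had 54 to 93 counts in controls at thermoneutrality and 10 to 20 after cold, so that its values there rest on few reads.

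**Figure D4:**
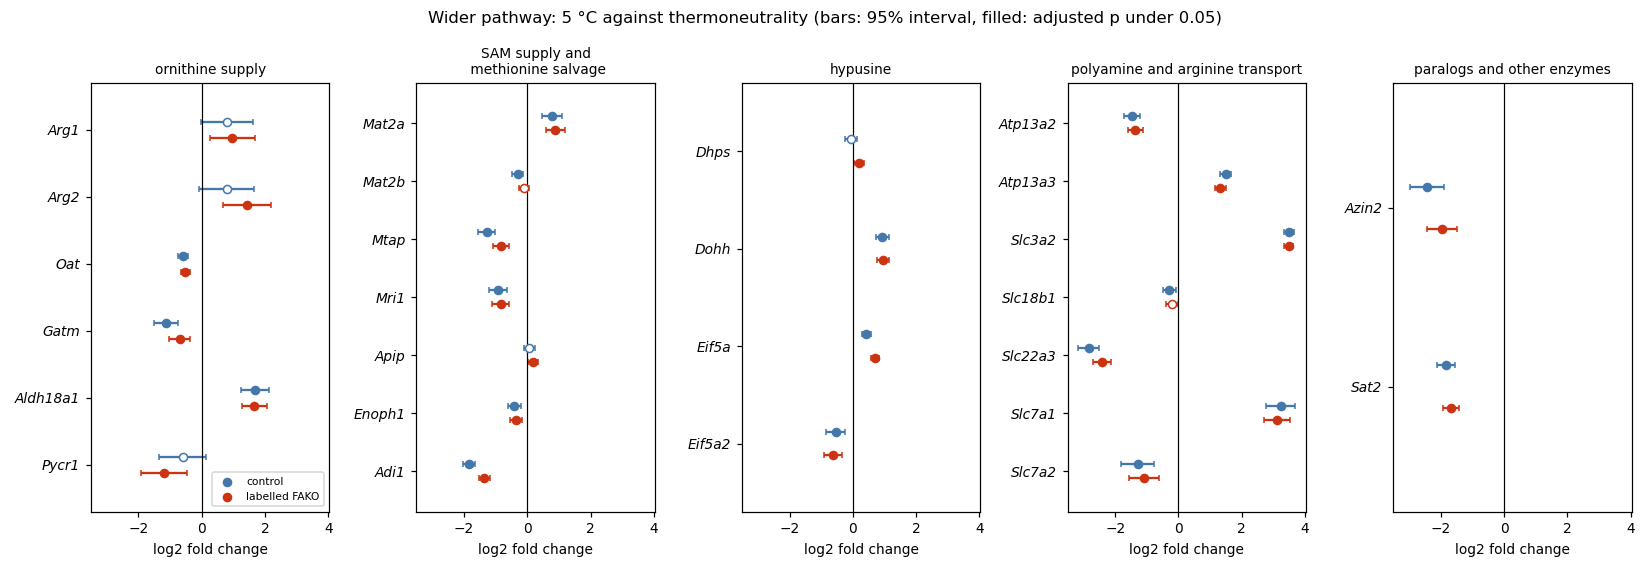
Log2 fold change at 5 °C against thermoneutrality (x axes) for the tested genes of the 5 wider lists, in control mice (blue) and mice labelled FAKO (red), with bars for the 95% interval and filled points for an adjusted p under 0.05. Slc3a2 and Slc7a1 lie above 3 and Slc22a3 below -2 in both genotypes.

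Within groups, the 10 genes had both positive and negative correlations with each other. After removing the group means over the 26 mice, the highest correlation among them was that of Srm with Amd1 (Pearson r = 0.62), and the lowest that of Azin1 with Oaz1 (r = -0.48). Of 8191 genes with a mean of at least 10 CPM, those most like Odc1 were Cad (r = 0.68), Elmsan1 (0.67) and Trim26 (0.66), and those most like Sat1 were Impdh1 (0.83), Rnf19b (0.83) and Shtn1 (0.81). The points share library, depth and scaling, and the correlations are descriptions.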

How the data were processed

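The deposited values were gene counts without normalization from 26 BAT libraries of rRNA-depleted total RNA (stranded kit, 100-bp single ends). Per the labels and methods, the authors used STAR 2.5.2b for alignment to mm10, featureCounts 1.5.2 with GENCODE M13 for counting, and edgeR 3.22.0. Symbols and exon lengths for RPKM came from GENCODE M21, and 50376 of 50686 identifiers had a symbol. Groups came from the sample labels.

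In R 4.3.3, edgeR 4.0.16 (legacy quasi-likelihood test) was fitted to the 17286 genes kept by filterByExpr, with 1 term per group over all 26 mice and TMM factors. P-values were adjusted by Benjamini-Hochberg over all genes tested (threshold 0.05). SEs and 95% intervals came from the same fit, and log2 CPM used a prior count of 2. DESeq2 1.42.0, other scalings and filters, the revised method, robust empirical Bayes, fits to only the groups compared and leaving out each mouse were alternatives. The steps were tested on simulated data only for FAKO against control at thermoneutrality, with 200 genes changed. The cold comparisons were not simulated. Low counts limit precision most for Sms and Smox (from 57 counts per mouse).

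Members and lists were chosen with earlier results of these data known. Named were all 10 members, Afdn, up to 4 genes per wider list with the largest cold change past the threshold, any listed gene past the threshold in a comparison of genotypes, and the 3 genes most correlated with Odc1 and Sat1. Copies of members were also named, as was Echs1, which overlaps Paox. Apip, Atp13a2, Slc7a2 and Oat were named outside this rule. Mice were separate samples by their labels.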

Additional observations from a re-analysis of the deposited data

Results flagged for a closer look

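Among 40 sets of values (10 genes in 4 groups), 3 held a mouse whose gap to its nearest neighbour was large for the range of its group (Dixon's 95% limit), a limit that chance passes in about 1 in 20 groups. In cold-exposed mice labelled FAKO, replicate 27 had the highest Srm (42.4 CPM) and the highest Sat1 (180.2 CPM). In controls at thermoneutrality, replicate 7 had the highest Smox (10.9 CPM). Both are the libraries farthest from their group means, and the values without them stand beside each gene.

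The cold response of Adi1, a dioxygenase of methionine salvage, differed between the genotypes by an interaction test. Adi1 had 17.3 to 22.2 CPM in controls at thermoneutrality and 5.22 to 5.67 CPM after cold, and in mice labelled FAKO 16.8 to 20.5 CPM and 5.98 to 8.40 CPM. The log2 difference of the responses was 0.49 (SE 0.12, edgeR adjusted p = 0.0452). It missed the threshold in 20 of 26 fits that each left out 1 mouse, with values from 0.46 to 0.54. Scaled by library size only, it was 0.28 (edgeR adjusted p = 0.26), and with every gene of at least 1 count 0.49 (edgeR adjusted p = 0.113).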

How the results depend on the processing

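No paired analysis was possible because no replicate number is shared between groups. Over the 10 genes and 5 comparisons, 440 of 490 log2 fold changes kept their sign and their side of the threshold under the alternatives other than leaving out 1 mouse, and 713 of 780 did so when 1 mouse was left out. Sign changes numbered 33 and 50, and 81 of these 83 were past the threshold in neither fit. The causes were not tested. With library size alone, the median of all genes was -0.14 for cold in controls and -0.34 for cold in mice labelled FAKO. It was 0.13 for genotype at thermoneutrality, -0.03 for genotype after cold and -0.15 for the difference of the responses. The signs below are not taken relative to these medians. Among counts, genes rising with cold were 3 in controls and 2 in mice labelled FAKO with library size alone (2 fell in the latter) and 4 in mice labelled FAKO with upper-quartile factors. Genes falling in controls ranged from 1 to 2 when 1 mouse was left out. With library size alone as the scaling, the sign changed for cold in controls (Azin1 -0.10), cold in mice labelled FAKO (Oaz1 -0.075, Oaz2 -0.019, Azin1 -0.093, Dhps -0.13), genotype at thermoneutrality (Odc1 0.019, Sat1 0.16, Smox 0.009, Oaz1 0.051, Afdn 0.15), genotype after cold (Azin1 -0.039), the difference of the responses (Amd1 -0.064, Sat1 -0.069, Paox -0.079). With upper-quartile factors, the sign changed for cold in controls (Azin1 -0.10), genotype at thermoneutrality (Sat1 0.028, Afdn 0.021), genotype after cold (Azin1 -0.018). With at least 10 counts in every mouse, the sign changed for cold in controls (Azin1 -0.037), genotype at thermoneutrality (Sat1 0.011, Afdn 0.002), genotype after cold (Azin1 -0.005). With only the groups compared, the sign changed for cold in controls (Azin1 -0.038), genotype at thermoneutrality (Sat1 0.013, Afdn 0.005). With the fit without both libraries farthest from their group means, the sign changed for cold in controls (Azin1 -0.096), cold in mice labelled FAKO (Sms 0.002), genotype at thermoneutrality (Smox 0.10), genotype after cold (Srm -0.042, Smox -0.001, Oaz2 0.038, Azin1 -0.029), the difference of the responses (Smox -0.10, Oaz2 0.000). With every gene with at least 1 count, the sign changed for genotype at thermoneutrality (Sat1 0.013, Afdn 0.004). With skeletal muscle score as a covariate, the sign changed for genotype at thermoneutrality (Sat1 0.016, Paox -0.001), genotype after cold (Azin1 -0.020). When 1 mouse was left out, signs changed within these ranges. For cold in controls, Oaz1 -0.047 to 0.003, Azin1 -0.097 to 0.046. For cold in mice labelled FAKO, Sms -0.18 to 0.040. For genotype at thermoneutrality, Sat1 -0.052 to 0.033, Smox -0.15 to 0.10, Paox -0.049 to 0.070, Oaz2 -0.034 to 0.065, Afdn -0.048 to 0.056. For genotype after cold, Amd1 -0.13 to 0.013, Srm -0.052 to 0.18, Smox -0.008 to 0.33, Oaz2 -0.12 to 0.027, Azin1 -0.058 to 0.042. For the difference of the responses, Srm -0.19 to 0.045, Oaz2 -0.13 to 0.013. Groups of 5 and 7 mice and counts under 100 for Sms and Smox in some mice limit the detectable differences.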
